A study of Mus musculus with 4 samples.

Results

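Dividing immature neutrophils were 1818 of the 31279 cells that passed the filters in 4 single-cell libraries of mouse bone. A cell counted as immature when the transcripts of the granule genes Camp, Ngp and Ltf together made up at least 2% of its unique molecular identifiers (UMIs, 1 per captured transcript molecule), and as dividing when it held at least 3 UMIs of Top2a, Mki67 and Cdk1. Cells with 3 or more UMIs of the monocyte genes Csf1r, Ms4a6c and Ccr2, or with 1% or more of their UMIs from the primary granule genes Mpo, Elane, Prtn3 and Ctsg, were left out. All cells had 1000 to 40000 UMIs, at least 200 genes, at most 10% mitochondrial and at most 0.2% haemoglobin UMIs. The cells were thus selected on the measured UMIs of these 13 genes, whose levels are given below only as a description. Haemoglobin and mitochondrial UMIs were capped as well, so the levels of haemoglobin genes are likewise only a description.

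The study compared wild-type mice without treatment (Ctrl, 2 mice) with wild-type mice after 28 days of hindlimb unloading (HLU, 2 mice), in which suspension by the tail takes the load off the hind limbs. Each mouse gave 1 library. Tibiae and femurs were flushed of marrow, digested with enzymes and captured in droplets (10x Genomics), so the neutrophils here are those that stayed with the flushed bone. The deposited description places the mice at postnatal day 28 while the methods of the paper give an older, adult age. The age is therefore not settled, and it is the same for both groups in either source.

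The libraries differed in depth. Ctrl replicate 1, Ctrl replicate 2 and HLU replicate 1 held 57925383, 61296053 and 47819046 UMIs, and HLU replicate 2 held 99849070. Dividing immature neutrophils numbered 177 and 293 in Ctrl and 400 and 948 in HLU, with 2127346, 3795742, 5228327 and 15433173 UMIs in all. HLU replicate 2 therefore supplied over 50% of the cells, and it stood apart from the other 3 libraries in several measures below. No barcode of a dividing immature neutrophil was shared with such a cell of another library.

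Neutrophils are made in the marrow from granulocyte progenitors. They pass through promyelocyte and myelocyte stages, in which the cells still divide, and stop dividing as they become metamyelocytes and band cells. Granule proteins are made in sequence along this path: the primary granule proteases and myeloperoxidase first, then secondary granule proteins such as lactoferrin (Ltf), the cathelicidin precursor (Camp) and neutrophilic granule protein (Ngp), then tertiary granule proteins such as gelatinase B (Mmp9). A cell with both secondary granule and mitotic transcripts is thus of the kind that a dividing myelocyte would be. C/EBP family factors, C/EBP-epsilon above all, are known regulators of the secondary granule genes, and many genes of the G2 and M phases are known to be controlled through CCAAT boxes and cell cycle homology regions (CHR) close to their start sites.

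The stretches before the start sites of 2 granule and 3 division genes are shown because these genes define and mark the cells. Each runs 5′ to 3′ on the gene's strand over the 180 bases before the start site that lies further upstream in RefSeq or GENCODE. The sequences are from RefSeq on GRCm38.p6 (the build of mm10). Capitals mark 3 motifs searched on both strands: TTTGAA (the core of the CHR), CCAAT, and TTGCNNAA (a C/EBP-type site).
Ngp, chr9:110419567-110419746, plus strand: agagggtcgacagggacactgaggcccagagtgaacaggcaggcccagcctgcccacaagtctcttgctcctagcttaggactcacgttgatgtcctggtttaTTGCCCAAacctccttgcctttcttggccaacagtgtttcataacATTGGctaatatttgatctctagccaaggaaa
Ltf, chr9:111019091-111019270, plus strand: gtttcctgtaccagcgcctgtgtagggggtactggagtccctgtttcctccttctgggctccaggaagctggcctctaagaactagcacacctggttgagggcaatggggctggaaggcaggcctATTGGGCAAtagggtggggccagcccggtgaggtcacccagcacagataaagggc
Top2a, chr11:99024190-99024369, minus strand: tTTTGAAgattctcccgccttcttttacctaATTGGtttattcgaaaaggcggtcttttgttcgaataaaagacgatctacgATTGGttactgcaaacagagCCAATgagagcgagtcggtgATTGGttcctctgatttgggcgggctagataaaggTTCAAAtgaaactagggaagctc
Ube2c, chr2:164769718-164769897, plus strand: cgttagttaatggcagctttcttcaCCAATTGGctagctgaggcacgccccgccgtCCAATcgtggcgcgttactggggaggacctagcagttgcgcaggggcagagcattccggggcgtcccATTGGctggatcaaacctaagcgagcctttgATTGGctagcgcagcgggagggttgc
Nusap1, chr2:119618118-119618297, plus strand: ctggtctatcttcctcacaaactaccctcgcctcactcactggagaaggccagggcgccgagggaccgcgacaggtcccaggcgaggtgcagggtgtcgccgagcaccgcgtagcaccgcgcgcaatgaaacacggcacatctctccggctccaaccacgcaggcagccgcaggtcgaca

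The stretch of Top2a, which encodes the topoisomerase that untangles chromosomes, held 4 CCAAT boxes and 2 CHR cores. That of Ube2c, the ubiquitin-conjugating enzyme of the anaphase-promoting complex, held 5 CCAAT boxes, a pair of which overlap. The stretches of Ngp and Ltf each held 1 C/EBP-type site and 1 CCAAT box, which overlap in Ltf. That of Nusap1, a spindle protein, held none of the 3 motifs. Of the 56 genes of a list of G2 and M phase genes, 49 had a RefSeq promoter. In the 180 bases before the RefSeq start, 36 of them (73.5%) held a CCAAT box, 16 (32.7%) a CHR core and 0 a C/EBP-type site. Over all 27025 genes with a promoter these shares were 30.8%, 12.7% and 7.66%. The matches are counts of letters and were not tested as binding sites.

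The label of the cells was checked against their transcripts. Camp and Ngp, both genes of the rule, were detected in all 1818 cells, but also in many B cell-like barcodes, which should lack them: Camp in 51.1%, 65.7%, 59.3% and 32.6% and Ngp in 49.4%, 73.1%, 64.6% and 33.6%. Ltf was detected in 90.4% and 93.2% of the cells in Ctrl and in 94.3% and 86.0% in HLU, against 7.39%, 10.7%, 16.7% and 5.53% of the B cell-like barcodes. Ube2c, which the rule did not use, was detected in 86.4%, 88.4%, 96.0% and 75% of the cells, against 18.4%, 18.7%, 23.9% and 16.7% of the immature neutrophils that were not dividing and 8.52%, 7.46%, 7.32% and 3.62% of the B cell-like barcodes. The median depths were 12113, 12292, 12932.5 and 15541.5 UMIs for the dividing cells, 5603, 4977, 6072.5 and 7783 for the non-dividing ones and 3994, 4336, 3812 and 2612.5 for the B cell-like barcodes. Camp, Ngp and Ltf were fixed by the rule, so of these markers Ube2c alone is independent of it, and the dividing cells were deeper than the non-dividing ones in every library. S100a8 and S100a9, the calcium-binding proteins that fill the neutrophil cytosol, made up 24.4%, 24.9%, 24.7% and 26.5% of all UMIs of the dividing cells.

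Doublets, in which 1 barcode holds a pair of cells, were not removed. Scrublet marked 12, 14, 39 and 50 of the dividing cells (6.78%, 4.78%, 9.75% and 5.27%). Of all kept cells it marked 428 of 7311, 449 of 7495, 459 of 7571 and 634 of 8902. The number marked per library was set in advance by a rate of 0.8% per 1000 cells. Among transcripts of other cell types, the B cell list summed to 35.7, 54.0, 235 and 19.4 counts per 1000000 UMIs (CPM) and was led by Igkc in HLU replicate 1. The monocyte and macrophage list, 3 genes of which the rule capped, summed to 57.8, 91.9, 26.6 and 37.4 CPM. Of its 13 genes, 9, 12, 10 and 11 were detected, and 15, 18, 8 and 47 cells held 3 or more of its UMIs. Klf4 led in the Ctrl libraries (19.7 and 45.8 CPM) and Cd68 in the HLU libraries (9.95 and 12.3 CPM). C1qa, C1qb and C1qc were each at 0 in 3 libraries. The list of cartilage genes summed to 3129, 2775, 4.59 and 80.3 CPM and that of mesenchymal and osteoblast genes to 2389, 3199, 182 and 169 CPM. The Ctrl libraries thus carried far more skeletal RNA in these cells than the HLU libraries did.

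The rule cuts through a continuum of division transcripts. Of the immature neutrophils, 146 had exactly 3 division UMIs and so lay just inside, 247 had exactly 2 and lay just outside, and 630 had 1 and 4091 had 0. A total of 1470 cells had 6 or more. At the granule threshold, 53 cells had 2 to 2.5% of UMIs from Camp, Ngp and Ltf, and 52 otherwise like cells had 1.5 to 2%. Most dividing cells thus lay well inside both thresholds, with a median of 10, 12, 16 and 19 division UMIs per cell and a median of 7.31%, 8.17%, 6.85% and 6.74% of UMIs from the 3 granule genes.

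A total of 4 classes of neutrophil lineage cells were set side by side: 680 cells with primary granule transcripts (at least 1% of UMIs from Mpo, Elane, Prtn3 and Ctsg), the 1818 dividing immature cells, 4968 non-dividing immature cells, and neutrophils with a Cxcr2 UMI, at least 2% of UMIs from S100a8 and S100a9 and under 2% from Camp, Ngp and Ltf (Cxcr2+ neutrophils). Values are CPM of the UMIs summed over the cells of a class, and because the classes were cut by these very programmes the contrasts carry no test. Genes of the G2 and M phases summed to 11479, 11429, 14419 and 11381 CPM in the dividing cells. In the cells with primary granule transcripts they summed to 6122, 4398, 6779 and 6461 CPM, and in the non-dividing cells to 1917, 2184, 2289 and 1734 CPM. The S phase list stood at 1938, 1848, 1602 and 1989 CPM in the dividing cells and at 412, 429, 356 and 397 CPM in the non-dividing cells.

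Granule genes placed the dividing cells between the other classes. The primary granule list without the 4 genes of the rule summed to 818, 718, 667 and 1345 CPM in the dividing cells, against 726, 606, 661 and 1073 CPM in the non-dividing cells and 2620, 2683, 2532 and 3594 CPM in the cells with primary granule transcripts. The secondary granule list without the 3 genes of the rule was already high, at 26308, 27553, 30341 and 48172 CPM, and reached 31379, 34260, 34930 and 55206 CPM in the non-dividing cells. It stood at 9471, 9571, 9334 and 19358 CPM in the cells with primary granule transcripts. Tertiary granule genes, by contrast, were still low: 5144, 5091, 6364 and 5747 CPM in the dividing cells against 11998, 13198, 13691 and 12468 CPM in the non-dividing cells. Secondary granule transcripts in the dividing cells were thus close to their level in the non-dividing cells, and tertiary granule transcripts were not.

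**Figure D1:**
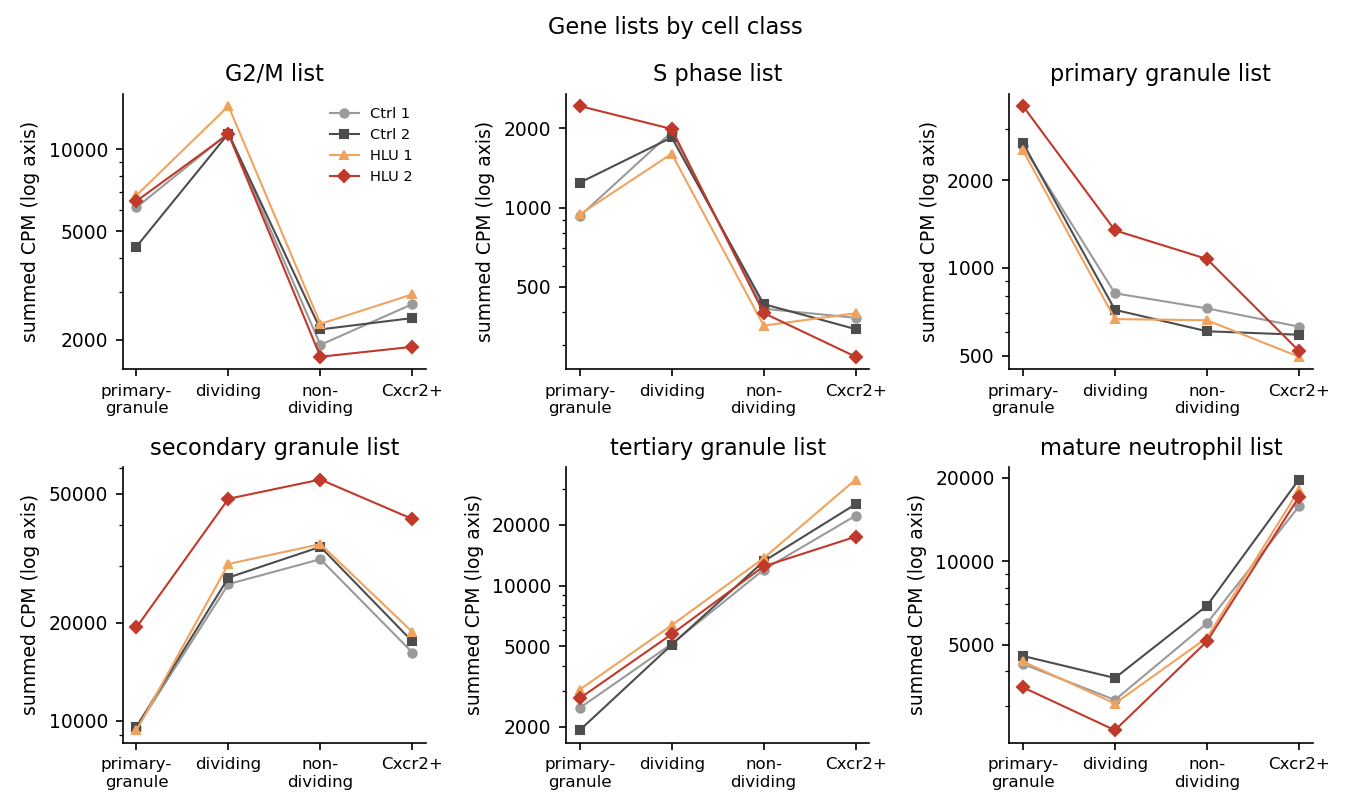
Summed CPM (log axes) of 6 gene lists, without the genes of the rule, in cells with primary granule transcripts, dividing and non-dividing immature neutrophils and Cxcr2+ neutrophils, with 1 point per library and lines joining the points of a library. In all 4 libraries the G2/M list is highest in the dividing cells, and the tertiary granule list is higher in the non-dividing and highest in the Cxcr2+ cells.

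Gene by gene, 2345 genes reached 50 CPM in either class, of which 194 were more than 2-fold higher in dividing than in non-dividing cells in all 4 libraries and 39 more than 2-fold lower. Nusap1 led at 272, 218, 302 and 229 CPM against 2.51, 5.18, 4.04 and 1.5 CPM, a median log2 ratio of 6.10. With the genes of the rule left out, after it came the S and M phase cyclin Ccna2, the mitotic kinase Pbk, the cohesin acetyltransferase Esco2, shugoshin (Sgo1), the kinetochore protein Spc25, the inhibitor of the anaphase-promoting complex Fbxo5, the central spindle protein Prc1, the kinetochore protein Cenpf and Rrm2, a subunit of ribonucleotide reductase. All 10 are known for roles in DNA replication or cell division.

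The genes with the lowest ratios included several that are known from later neutrophils. The collagenase Mmp8 stood at 37.1, 44.5, 92.6 and 114 CPM against 351, 441, 556 and 889 CPM in the non-dividing cells, a median log2 ratio of -3.08. Retnlg, a resistin-like secreted protein of neutrophils, stood at 1255, 1660, 1582 and 537 CPM against 6581, 7770, 6759 and 4418 CPM. Gelatinase B (Mmp9) and the neutrophil surface marker Ly6g had median log2 ratios of -2.10 and -2.04. Others were Acvrl1, Asprv1, Slfn1, Emilin2 and Ankrd33b. Mmp8 is usually counted with the secondary granule proteins, yet Lcn2, of the same granules, was at 6826, 8361, 7117 and 16651 CPM in the dividing cells and at 9201, 11869, 8712 and 22059 CPM in the non-dividing ones, a much smaller difference.

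The dividing cells also varied among themselves. In each library they were split into 3 equal groups by the share of UMIs from Camp, Ngp and Ltf, and the top group was compared with the bottom group as a ratio of CPM, again as a description. Secondary granule genes other than those 3 were higher in the top group in 4 of 4 libraries (median ratio 1.43), Lcn2 by 1.62 and the chitinase-like Chil3 by 1.47. Mpo (0.180), Elane (0.365) and the growth regulator Myc (0.241) were lower in 4 of 4 libraries, as were Cebpa, the C/EBP factor of early progenitors (0.475), and ribosomal protein genes (0.694). Cebpe was higher in 4 of 4 (1.19), as was Fcnb, a ficolin of early granules (1.69).

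Some late genes were lower as well. Mmp8 (0.282), Mmp9 (0.287) and the list of mature neutrophil genes (0.649) were lower in the top group in all 4 libraries. The G2/M list (0.928) and the S phase list (0.933) differed little, and their direction differed between libraries. The early myelocyte list (1.06) and the tertiary granule list (0.913) were each higher in 2 libraries and lower in 2, and Ly6g (1.26) was higher in 3 of 4. Neither all early nor all late genes thus moved in the same direction. A larger share of 3 abundant genes leaves fewer UMIs for all others, and the part of that in these ratios was not tested.

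The first comparison asked whether the cells were more frequent after unloading. Dividing immature neutrophils made up 2.42% (95% exact binomial interval 2.08 to 2.80) and 3.91% (3.48 to 4.37) of the kept cells in the Ctrl libraries, and 5.28% (4.79 to 5.81) and 10.6% (10.02 to 11.3) in the HLU libraries. The intervals cover counting error only. Both HLU values lay above both Ctrl values, with means of 7.97% ± 3.79 and 3.17% ± 1.05 (SD, n = 2). The difference of 4.80 percentage points gave p = 0.33 in a two-sided exact permutation test, the smallest p that 2 against 2 libraries allow. Without HLU replicate 2 the difference was 2.12 points, and without HLU replicate 1 it was 7.48 points.

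The denominators differed between the groups as well. Barcodes with at least 5% of their UMIs from the cartilage and mesenchymal lists, called skeletal barcodes here, numbered 2764 and 2009 in Ctrl but 40 and 79 in HLU. Among cells of the neutrophil lineage alone, dividing immature neutrophils made up 7.12%, 8.07%, 7.0% and 15.4% (exact permutation p = 1, n = 2 per group). With this denominator HLU replicate 1 lay below both Ctrl libraries, and the groups overlapped.

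The share of immature neutrophils that were dividing was 20.9% (18.2 to 23.8) and 21.6% (19.5 to 23.9) in the Ctrl libraries, and 18.5% (16.8 to 20.1) and 39.2% (37.2 to 41.2) in the HLU libraries. HLU replicate 2 stood alone near 40%, while HLU replicate 1 was the lowest of the 4. The means were 21.3% ± 0.490 and 28.8% ± 14.7 (SD, n = 2), with p = 1 in the exact permutation test, and without HLU replicate 2 the difference changed sign, from 7.53 to -2.84 points. Deeper cells show more division UMIs, so every cell was also thinned to 3000 UMIs and called dividing at 1 UMI. This left out 115, 237, 375 and 20 immature neutrophils with fewer UMIs. The shares were then 26.7%, 29.7%, 24.5% and 39.7%. In Cxcr2+ neutrophils the same thinning gave 5.92%, 5.34%, 5.98% and 3.83%. Unthinned, 1.66%, 1.09%, 1.51% and 0.934% of them had 3 or more division UMIs, at median depths of 2425, 2883, 2776 and 4136 UMIs. A Cxcr2 UMI does not by itself mark cells past division. It was also detected in 33.9%, 34.8%, 57.75% and 50.9% of the dividing cells. The difference between the group means was 3.87 points after thinning, against 7.53 before, and HLU replicate 2 was the highest library in both.

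**Figure D2:**
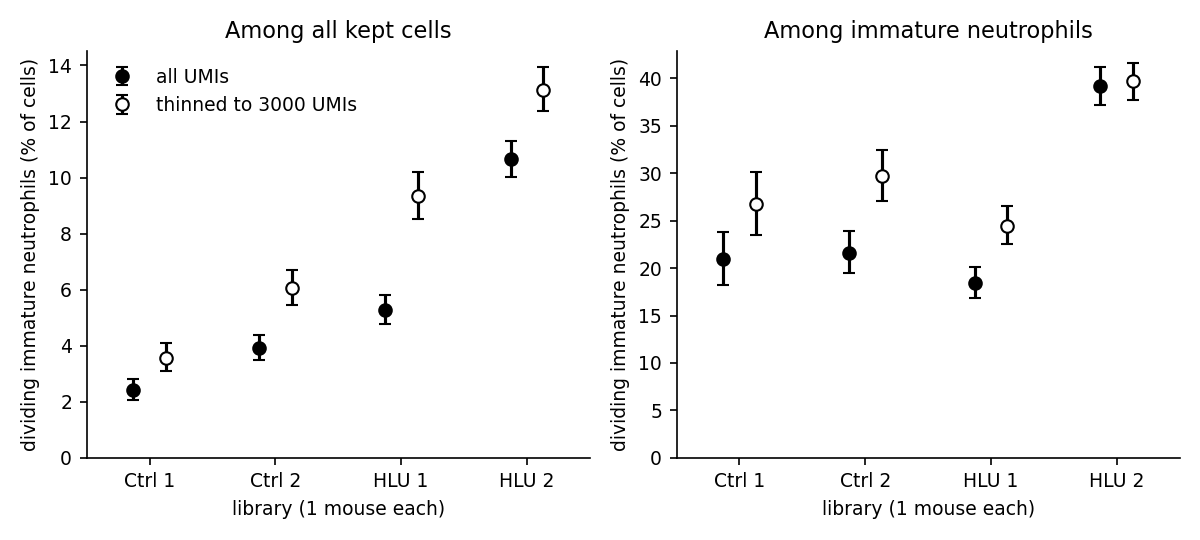
Share of dividing immature neutrophils in each library, among all kept cells (left) and among immature neutrophils (right), in percent. Filled points use all UMIs, open points cells thinned to 3000 UMIs, and bars are 95% exact binomial intervals. On the right HLU 2 is at 39.2% and the other 3 libraries are between 18.5% and 21.6% with all UMIs.

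Within the dividing cells, the balance of cycle phases was measured as the ratio of the summed S phase to the summed G2/M transcripts. It was 0.169 and 0.162 in Ctrl and 0.111 and 0.175 in HLU (exact permutation p = 1, n = 2 per group). With all UMIs, 1 HLU value was below the Ctrl pair and the other above it. In cells thinned to 3000 UMIs the ratio was 0.180 and 0.1617 in Ctrl and 0.117 and 0.1613 in HLU. Both HLU values then lay below the Ctrl pair, HLU replicate 2 only just (exact permutation p = 0.33). The share of UMIs from Mpo, Elane, Prtn3 and Ctsg, which the rule capped and which is given only as a description, was 0.0741% and 0.101% in the Ctrl mice against 0.0659% and 0.140% in the HLU mice.

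The second comparison asked which genes differed between HLU and Ctrl within the dividing cells. UMIs were summed per library and tested with edgeR's quasi-likelihood test over 9297 genes, with p-values adjusted by Benjamini-Hochberg and a threshold of 0.05. From here on, CPM of the dividing cells are scaled by edgeR's TMM factors, and those of the non-dividing cells are not. A total of 214 genes changed, of which 1 rose (0.0108% of the genes tested) and 213 fell (2.29%). This number changed by a large factor when 1 library was left out or the filter on low counts was changed, as given in the last section. At an unadjusted p under 0.05 there were 1000. DESeq2 called 9 as higher and 296 as lower. In 1938 genes (20.8%) both HLU libraries lay above both Ctrl libraries and in 2089 (22.5%) below. Over all genes tested the median log2 fold change was 0.01.

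Most of the genes that fell were far higher in skeletal barcodes than in the dividing cells. By the rule for named genes, the largest falls included those of the caveolar protein Cavin3, the growth arrest gene Gas1, the cartilage proteins Ucma and Col9a1, and Crispld1, Fxyd2, Adm, Hspb1 and Fam180a. Gas1 stood at 6.79 and 16.8 CPM in Ctrl and at 0 in both HLU libraries. With UMIs pooled per group and 3 UMIs over both HLU libraries taken as the floor, Gas1 was at least 90.3-fold lower. From Ctrl replicate 1 alone this bound would be lower. Cavin3 was at least 87.9-fold lower on the same terms, and 23 of the genes that fell had no UMI in either HLU library. Of 14 cartilage genes tested, 11 fell and their median log2 fold change was -6.69, and of 10 mesenchymal and osteoblast genes 5 fell (median -5.37). Of all genes tested, 2.29% fell. No tested gene of these lists was at 0 in both HLU libraries. Prg4, the joint lubricant lubricin, was at 505 and 888 CPM against 0.53 and 6.88 CPM.

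A pair of measurements bears on the place of these transcripts. Of the Ctrl dividing cells, 99.4% and 100% held a UMI of the cartilage list, at a median of 7 and 9 UMIs per cell, and of the HLU cells 5.0% and 8.97%. The B cell-like barcodes of the same Ctrl libraries held it in 100% and 99.4%, at a median of 6 and 7 UMIs. Their median depths were 3994 and 4336 UMIs against 12113 and 12292 UMIs in the dividing cells, so the counts per cell were close and the counts per UMI were not. The most cartilage-rich 5 cells held 69.7% and 62.6% of these UMIs in the Ctrl libraries, and 1 cell held 92.2% of them in HLU replicate 2.

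Each tested gene was then placed by the ratio of its CPM in the skeletal barcodes of the Ctrl libraries to that in the Ctrl dividing cells. Of 411 genes with a ratio of 10 or more, 183 were called (44.5%), with a median log2 fold change of -3.69. Between 3 and 10, 23 of 933 were called (2.47%), between 1 and 3, 1 of 3499 (0.0286%), and under 1, 7 of 4454 (0.157%). The median ratio was 18.8 among the genes called and 1.05 among all tested. With the genes at or above a ratio of 10 left out, an alternative added after the values were seen, 8 of 8896 genes fell (0.0899%) and 0 rose. They were Ccl4, Lrrc2, Fxyd2 and 5 cartilage collagen genes, Col9a1, Col9a2, Col9a3, Col11a1 and Col11a2.

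**Figure D3:**
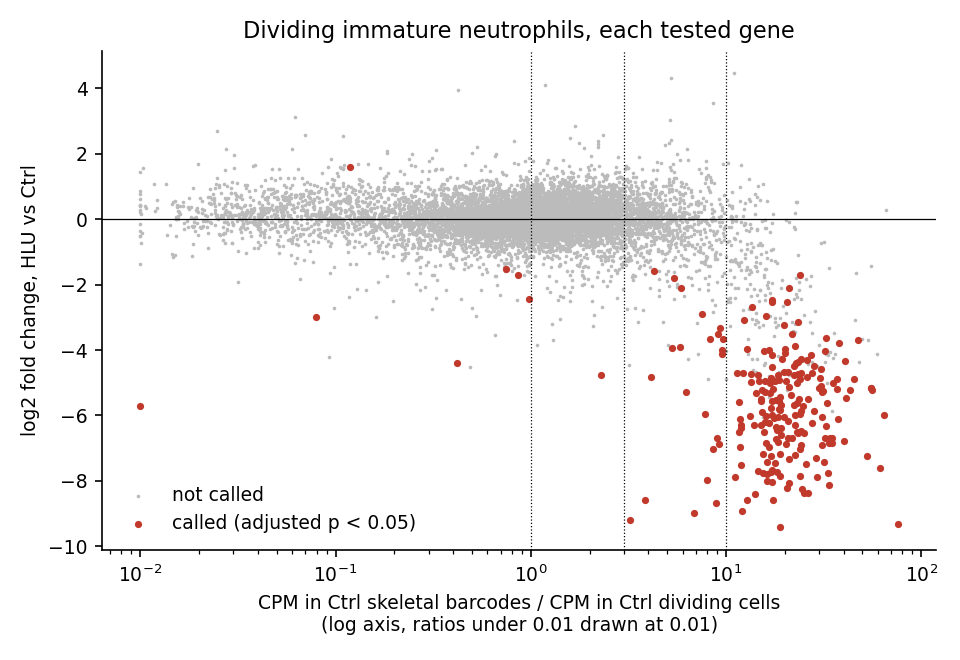
Log2 fold change (HLU vs Ctrl) of each tested gene in dividing immature neutrophils against the ratio of its CPM in Ctrl skeletal barcodes to that in Ctrl dividing cells (log axis, dotted lines at 1, 3 and 10). Red points are genes with an adjusted p under 0.05; 183 of the 214 lie at a ratio of 10 or more.

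The 7 genes called with a ratio under 1, picked out after their values were seen, were Itgal, Srgn, Jun, Usp36, Ccl4, Lrrc2 and Gm13075. The gene that rose was Itgal (chr7:127296260-127335138, plus strand), the alpha chain of the integrin LFA-1 by which leukocytes adhere to vessel walls. It stood at 21.8 and 22.2 CPM in Ctrl and at 62.5 and 69.4 CPM in the HLU libraries, 1.58 on the log2 scale (SE 0.28, adjusted p = 0.041 by edgeR's quasi-likelihood test). Both HLU libraries lay well above both Ctrl libraries, and the rise did not rest on a few cells. Itgal was detected in 22.0%, 21.5%, 53.8% and 59.8% of the dividing cells, at the median depths given above, against 1.27% and 3.38% of the skeletal barcodes of the Ctrl libraries, at 8706.5 and 10423 UMIs. In the non-dividing cells Itgal was at 40.2, 55.8, 95.1 and 80.5 CPM (log2 fold change 1.03, adjusted p = 0.229 by edgeR's quasi-likelihood test), also higher in both HLU libraries. Without Ctrl replicate 1 or 2 the adjusted p was 0.480 and 0.635 by edgeR, with a log2 fold change of 1.57 and 1.62, and the call was lost in 5 of 15 alternatives. The other genes with the smallest p among those higher in HLU did not pass. Gm13212 was at 4.85, 2.98, 13.7 and 19.8 CPM (adjusted p = 0.070 by edgeR's quasi-likelihood test). The haemoglobin genes Hbb-bs, at 9.21, 10.6, 25.6 and 35.6 CPM, and Hba-a1 came next, and Mmp8 followed. The filter capped haemoglobin UMIs, so the values of the haemoglobin genes are given only as a description.

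Srgn (chr10:62493833-62527451, minus strand) encodes serglycin, the proteoglycan that packs cationic proteins into granules. It fell from 885 and 902 CPM to 321 and 296 CPM, -1.54 on the log2 scale (SE 0.26, adjusted p = 0.036 by edgeR's quasi-likelihood test). The non-dividing cells showed the same order, at 2073, 2106, 955 and 277 CPM. Srgn was also abundant outside the neutrophils, with a UMI in 67.7% and 73.7% of the Ctrl skeletal barcodes. Without Ctrl replicate 1 or 2 its adjusted p was 0.358 and 0.573 by edgeR, and the call was lost in 5 of 15 alternatives, with a log2 fold change of -1.90 to -1.32.

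Jun, the immediate early transcription factor, fell from 361 and 464 CPM to 141 and 113 CPM (log2 fold change -1.70, SE 0.30, adjusted p = 0.041 by edgeR's quasi-likelihood test), and Usp36, a nucleolar deubiquitinase, from 19.4 and 23.8 CPM to 5.27 and 2.97 CPM. Without Ctrl replicate 1 or 2 the adjusted p of Jun was 0.162 and 0.655 by edgeR, and without Ctrl replicate 2 that of Usp36 was 0.131. The call on Jun was lost in 6 of 15 alternatives and that on Usp36 in 5, with log2 fold changes of -1.90 to -1.48 and -2.87 to -2.04. Both transcripts were lower in each HLU library than in either Ctrl library.

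The chemokine Ccl4 (chr11:83662584-83664683, plus strand) showed another pattern. Its summed level fell from 125 and 101 CPM to 12.6 and 15.4 CPM, -3.00 on the log2 scale (SE 0.30, adjusted p = 0.008 by edgeR's quasi-likelihood test). The share of dividing cells with a Ccl4 UMI, however, was 10.2%, 11.6%, 8.50% and 13.4% and did not separate the groups. It was of the same order as in B cell-like barcodes, at 10.8%, 18.2%, 10.9% and 10.2%. A single cell held 57.4% and 29.6% of the Ccl4 UMIs in the Ctrl libraries, and 5 cells held 94.2% and 83.3%. With at least 6 division UMIs required, the log2 fold change was -2.17 and the adjusted p 0.438 by edgeR. The call on Ccl4 thus rested on a handful of cells, and that on Lrrc2 on 4, 6, 2 and 3 cells with a UMI. In non-dividing cells Ccl4 was at 122, 45.4, 35.9 and 74.6 CPM, with the groups overlapping.

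The granule, early myelocyte, NADPH oxidase and granulocyte transcription factor lists held no call by edgeR. Over the primary granule, early myelocyte, secondary granule, tertiary granule, NADPH oxidase and granulocyte transcription factor lists, with the 7 tested genes that chose the cells left out, 0 of 63 genes passed in edgeR's quasi-likelihood test, 12 had an unadjusted p under 0.05, and DESeq2 called 2, Mmp8 as higher and Nfil3 as lower. The secondary granule list had a median log2 fold change of 0.44 over its 16 other genes and the tertiary list 0.45 over 12, each with 7 genes above both Ctrl libraries in both HLU libraries. Of all 9297 genes tested, 20.8% lay above in this way and 1000 had an unadjusted p under 0.05. DESeq2 called 9 of them as higher and 296 as lower. With all 19 tested genes the secondary granule median was 0.41, and it was 0.07 without HLU replicate 2 and 0.67 without HLU replicate 1. The tertiary granule median was 0.28 without HLU replicate 2 and 0.49 without HLU replicate 1. Mmp8 was at 38.3, 45.8, 85.0 and 119 CPM (log2 fold change 1.27, adjusted p = 0.127 by edgeR's quasi-likelihood test), and Cybb, the catalytic subunit of the NADPH oxidase, at 453, 590, 698 and 1566 CPM (1.12, adjusted p = 0.412). Both were higher in each HLU library than in either Ctrl library without passing the test. Cebpe stood at 434, 438, 488 and 555 CPM and Spi1, the myeloid master factor PU.1, at 423, 359, 411 and 437 CPM.

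The cell cycle lists held no call by edgeR. Over the S phase, G2/M and cyclin, kinase, inhibitor and E2F lists, 0 of 122 genes passed in edgeR's quasi-likelihood test, 5 had an unadjusted p under 0.05, and DESeq2 called 1, Cdkn1a, as lower. Over all 9297 genes tested, 1000 had an unadjusted p under 0.05 and DESeq2 called 296 as lower. The medians were -0.05 over 43 S phase genes, 0.05 over 56 G2/M genes and 0.04 over 28 cyclin and inhibitor genes. Hmgb2, the chromatin protein of cycling cells, was at 3247, 3403, 3947 and 4125 CPM, Ccnd3, the D-type cyclin, at 259, 230, 259 and 326 CPM, and Rrm2 at 186, 168, 149 and 129 CPM. The S phase median went from 0.22 without HLU replicate 1 to -0.51 without HLU replicate 2. In the same order the G2/M median went from -0.05 to 0.21 and the cyclin and inhibitor median from -0.08 to 0.09. The sign of each thus depended on which HLU library was left out.

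Lists of hypoxia targets and glycolysis held 3 calls by edgeR. Of 17 targets of the hypoxia-inducible factors, 3 fell (Adm, P4ha2 and Higd1a), 14 were below both Ctrl libraries in both HLU libraries, and the median was -1.64. Over all genes tested, 2.29% fell and 22.5% were below both Ctrl libraries in both HLU libraries. DESeq2 called 6 of the 17 targets, all lower, and 296 of all 9297 genes tested as lower. The median was -1.01 without HLU replicate 2 and -2.66 without HLU replicate 1. Adm, P4ha2 and Higd1a were 17.4, 18.2 and 5.88 times higher in skeletal barcodes. Higd1a, a small mitochondrial protein, went from 266 and 403 CPM to 99.0 and 57.6 CPM (log2 fold change -2.10, SE 0.39, adjusted p = 0.048 by edgeR's quasi-likelihood test), and without Ctrl replicate 2 its adjusted p was 0.337 by edgeR, and the call was lost in 7 of 15 alternatives, with a log2 fold change of -2.54 to -1.74. Ero1l, the oxidase of protein folding, was at 470, 772, 267 and 158 CPM (-1.55, adjusted p = 0.159 by edgeR). Of 16 glycolysis genes 0 passed in edgeR's quasi-likelihood test, 8 had an unadjusted p under 0.05 and DESeq2 called 1, and 12 were below both Ctrl libraries in both HLU libraries, with a median of -1.05. An unadjusted p under 0.05 was reached by 1000 of all 9297 genes tested. Gapdh was at 5171, 5706, 3902 and 1411 CPM. The glycolysis median was -0.67 without HLU replicate 2 and -1.83 without HLU replicate 1.

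Lists of glutamine metabolism and apoptosis showed no call. In the dividing cells 0 of 20 glutamine metabolism genes passed in edgeR's quasi-likelihood test, 0 had an unadjusted p under 0.05 and DESeq2 called 0 (median -0.08). Of 10 anti-apoptotic genes 0 passed, 1 had an unadjusted p under 0.05 and DESeq2 called 0 (median -0.07), and of 14 pro-apoptotic genes 0 passed, 5 had an unadjusted p under 0.05 and DESeq2 called 0 (median 0.09), by the same edgeR test. Among all 9297 genes tested, 1000 had an unadjusted p under 0.05. The anti-apoptotic median was 0.29 without HLU replicate 1 and -0.14 without HLU replicate 2, and the pro-apoptotic median 0.06 and -0.05. The sign of both medians thus depended on which HLU library was left out. Xiap, an inhibitor of caspases, was at 28.6, 21.7, 35.6 and 49.9 CPM (log2 fold change 0.78, SE 0.32, adjusted p = 0.455 by edgeR), higher in both HLU libraries. Cycs, cytochrome c, was at 405, 402, 209 and 196 CPM (-0.99, SE 0.26, adjusted p = 0.186 by edgeR), lower in both. Mcl1, the survival protein on which neutrophils depend, was at 406, 516, 328 and 89.6 CPM.

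Of 19 immediate early and heat shock genes 2 fell, Jun and Atf3, DESeq2 called 6, all lower, 18 were below both Ctrl libraries in both HLU libraries, and the median was -1.13. The shares over all genes tested were 2.29% for a fall by edgeR and 22.5% for both HLU libraries below both Ctrl libraries. DESeq2 called 296 of all 9297 genes as lower. Atf3 went from 19.9 and 21.4 CPM to 2.63 and 0.94 CPM (log2 fold change -3.65, SE 0.54, adjusted p = 0.025 by edgeR's quasi-likelihood test). Its CPM was 8.29 times higher in skeletal barcodes, and its call was lost in 3 of 15 alternatives, with a log2 fold change of -4.42 to -2.96. Of the remaining lists, mature neutrophil genes held 1 call (Srgn, 20 tested, median 0.01; DESeq2 called 1 higher and 2 lower) and the monocyte list 1 (Klf4, 5 tested, from 20.4 and 47.1 CPM to 0.88 and 0.94 CPM, 17.5 times higher in skeletal barcodes). Over the interferon-stimulated, secretory pathway, histone and ribosomal protein lists 0 of 177 genes passed in edgeR's quasi-likelihood test, 12 had an unadjusted p under 0.05, and DESeq2 called 1, Hist1h4i, as lower. The medians of these lists were 0.34, -0.20, 0.33 and -0.15. For comparison, 1000 of all 9297 genes tested had an unadjusted p under 0.05. The histone median was 0.71 without HLU replicate 1 and -0.33 without HLU replicate 2, and the secretory median 0.03 and -0.55, so the sign of both depended on 1 library. Among lists of other blood cells, 5 B cell genes had a median of 0.74, 4 dendritic cell genes -0.31 and 1 megakaryocyte gene -1.75. None of these passed by the same test, with 1 at an unadjusted p under 0.05. The 4 erythroid genes had a median of 2.01, given only as a description because the filter capped haemoglobin UMIs. The B cell median was -1.43 without HLU replicate 1 and 1.73 without HLU replicate 2, and the dendritic cell median -1.32 and -0.0034.

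**Figure D4:**
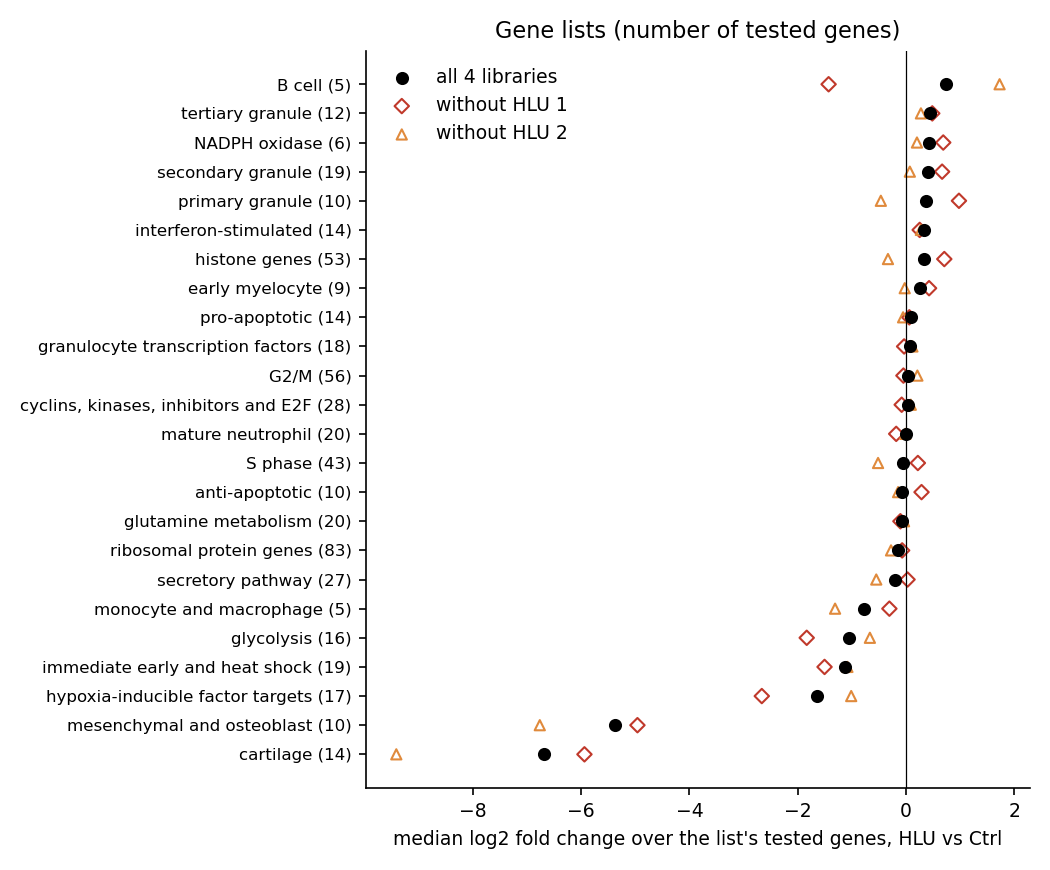
Median log2 fold change (HLU vs Ctrl) in dividing immature neutrophils over the tested genes of each list with 5 or more of them, the number tested in brackets. Black points use all 4 libraries; open diamonds leave out HLU 1 and open triangles HLU 2. The cartilage and mesenchymal medians lie at -6.69 and -5.37, and the cell cycle medians near 0. The primary granule, secondary granule and monocyte medians include genes that chose the cells.

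HLU replicate 2 differed from the other 3 libraries in single genes. Ly6c2, a surface antigen of early myeloid cells, was at 325, 306, 353 and 3733 CPM (log2 fold change 2.70, adjusted p = 0.368 by edgeR's quasi-likelihood test). The linker histones Hist1h1b and Hist1h1e were at 168, 192, 153 and 1242 CPM and at 118, 163, 106 and 1088 CPM. Lipocalin 2 (Lcn2), which withholds iron from bacteria, was at 7037, 8594, 6531 and 17338 CPM. Cebpb, the C/EBP factor of emergency granulopoiesis, went the other way, at 998, 1044, 880 and 54.8 CPM (adjusted p = 0.706 by edgeR). In each, HLU replicate 1 was close to the Ctrl libraries, and none of these genes passed the test.

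The same library also stood apart in other cells. Cebpb was detected in 97.7%, 98.6%, 100% and 48.7% of the dividing cells. Outside them it was detected in 87.4%, 93.2%, 92.5% and 50.6% of the skeletal barcodes, and in 46.6%, 51.9%, 46.0% and 7.66% of the B cell-like barcodes. In the non-dividing cells Ly6c2 was at 217, 241, 373 and 1702 CPM. Whether the library or the animal was different cannot be told apart, as each animal gave 1 library.

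**Figure D5:**
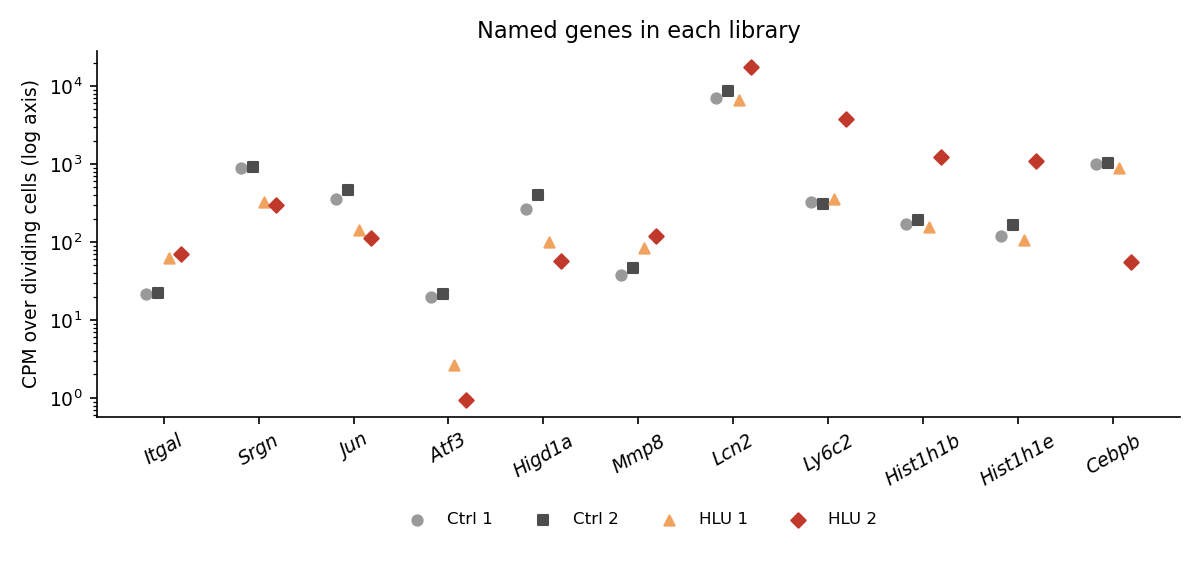
CPM (log axis, TMM-scaled) of 11 named genes in the dividing immature neutrophils of each library. Itgal and Mmp8 are higher and Srgn, Jun, Atf3 and Higd1a lower in both HLU libraries, whereas Lcn2, Ly6c2, Hist1h1b, Hist1h1e and Cebpb stand apart in HLU 2 alone.

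The third comparison asked whether the HLU vs Ctrl change differed between dividing and non-dividing immature neutrophils of the same libraries. In the non-dividing cells 210 of 10212 genes fell (2.06%). The difference itself was tested with an interaction term in edgeR's quasi-likelihood test over 10286 genes, and 2 passed (0.0194%), with 397 at an unadjusted p under 0.05 and 9 by DESeq2. How many passed changed with the library left out and with the settings, as given in the last section. Both genes that passed here by edgeR are matrix genes. Fn1, fibronectin, was at 416, 359, 4.47 and 1.33 CPM in the dividing cells and at 293, 419, 51.1 and 34.0 CPM in the non-dividing cells on the scale of that fit, a difference in log2 fold change of -4.21 (SE 0.38, adjusted p = 0.002 by edgeR). Col10a1, the collagen of hypertrophic cartilage, differed by -4.25 (SE 0.45, adjusted p = 0.006 by edgeR). Neither gene passed when at least 4% of UMIs from Camp, Ngp and Ltf were required, and both differences were then far smaller. Neither passed with the non-dividing cells limited to those with 0 division UMIs. In the HLU libraries a single non-dividing cell held 58.8% and 72.6% of the Fn1 UMIs and 57.4% and 88.7% of the Col10a1 UMIs. The share of cells with a Fn1 UMI was 6.25% and 2.22% of the dividing and 6.62% and 2.31% of the non-dividing cells in the HLU libraries, and that with a Col10a1 UMI 0.50% and 0.211% against 1.87% and 0.408%. The dividing cells were the deeper ones, at the median depths given above.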

How the data were processed

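The authors made UMI counts per gene and barcode with Cell Ranger 6.0.0 on mm10 and deposited raw counts (31053 genes, 4 libraries), without normalization. Cells were selected by the rule in the report. Members and gene lists were chosen with earlier results of these data known. UMI counts were summed per library and class and tested with edgeR 4.0.16 (R 4.3.3; TMM factors, edgeR's filter on low counts, quasi-likelihood test, Benjamini-Hochberg), with DESeq2 1.42.0 as an alternative; both were tested on simulated data. Shares were compared by two-sided exact permutation tests; intervals are Clopper-Pearson. Scrublet ran in scanpy 1.11.5. Gene positions are from GENCODE M21. Named genes were the rule and marker genes, the 3 most abundant and all called members of each list, the 10 largest changes that passed in each direction, the 5 smallest unadjusted p where under 5 passed, the 10 largest class ratios each way, and the genes whose change differed between classes. Some genes that the rule names are not reported here. B cell-like barcodes held at least 5 UMIs of Cd79a, Cd79b, Ms4a1 and Ighm and under 2% of UMIs from S100a8 and S100a9. In the HLU vs Ctrl tests, p-values measure the spread between 2 mice per group. The interaction test had library as a block, so its p-values measure the spread between mice in the difference between the classes.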

Additional observations from a re-analysis of the deposited data

Results flagged for a closer look

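The HLU vs Ctrl change of Fn1 and Col10a1 differed between dividing and non-dividing immature neutrophils of the same libraries, by -4.21 and -4.25 on the log2 scale (edgeR's quasi-likelihood test of the difference, adjusted p = 0.002 and 0.006). With at least 4% of UMIs from Camp, Ngp and Ltf required of the cells, 0 genes passed that test, and the differences for the 2 genes were -0.59 and -0.54.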

How the results depend on the processing

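The share of immature neutrophils that were dividing differed by -2.84 to 17.9 percentage points when 1 library was left out, the S phase to G2/M ratio by -0.0542 to 0.00954 and the primary granule share by -0.0214 to 0.0529 points. Each changed sign, the ratio without HLU replicate 1 and both shares without HLU replicate 2. The number of genes changed HLU vs Ctrl in dividing immature neutrophils, 214, became 130 to 2983 when 1 library was left out (130 without Ctrl replicate 2, 684 without HLU replicate 2, 2983 without HLU replicate 1). It became 8 without genes 10 times higher in skeletal barcodes, 821 with no filter on low counts, 8 with at least 10 counts in every library and 361 with the replicate number as a block. Deviations of same-numbered libraries from their group means correlated at 0.0324, and those of differently numbered libraries at -0.0324. With 2 libraries per group these values mirror each other, so they cannot show whether the numbers pair animals. The 2 genes of the class comparison became 0 to 229 when 1 library was left out. They became 36 without doublets, 13 with equal cell numbers, 85 with no filter and 9 by DESeq2. They became 1 with at least 6 division UMIs, without listed transcripts of other cells or with at least 10 counts, and 0 with 4% of granule UMIs, without skeletal genes or with non-dividing cells at 0 division UMIs. Of the gene lists, 6 had a median below -1, and 3 without listed transcripts of other cells or with at least 10 counts. Over 39 named genes that passed, 447 of 498 alternatives kept the call, 51 lost it and 0 reversed. Of these losses, Higd1a had 7, Jun 6, and Itgal, Srgn, Usp36 and Gm13075 had 5 each. The causes were not tested. The omission of genes 10 times higher in skeletal barcodes was chosen after seeing the data. Ctrl replicate 1 gave the fewest cells, 177, and so the least depth for low genes.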
